A study of Rattus norvegicus with 6 samples.

Results

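Transcripts of the complement, coagulation and fibrinolysis systems were examined in bulk RNA-seq of rat pulmonary veins (PVs). The genes were taken by symbol from a list of 40, of which 39 were among the 17833 genes of the table and 38 were expressed enough to be tested, among 15150 tested genes in all. F7 was not analysed here, and C5 was present but fell below the expression minimum. The libraries came from wild-type Sprague-Dawley rats at postnatal day 21, with 3 rats in the bilateral pulmonary vein banding (BPVB) group, operated on at postnatal day 1 to narrow the veins, and 3 in the sham group, which underwent cold anesthesia and opening of the chest without constriction. The tissue was the PV of the right upper lobe, taken whole. More or fewer cells of a type and more or less RNA per cell therefore cannot be told apart in these values, for rises as for falls. The question for each gene was whether its level in the banded veins differed from that in the sham veins by more than the libraries of a group differed among themselves.

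Complement, coagulation and fibrinolysis are cascades of serine proteases that circulate as inactive precursors and cleave each other in turn. Complement is started by C1 on antibody or dying cells, by lectins or by the alternative pathway, converges on C3 and ends in a pore of C5b to C9, while coagulation is started when tissue factor meets plasma and is held back on intact endothelium by thrombomodulin, protein C and tissue factor pathway inhibitor. Fibrinolysis removes the clot through plasmin, which is cut from plasminogen by tissue-type and urokinase-type activators. The liver makes most of the circulating proteins, but endothelium, fibroblasts, smooth muscle and macrophages make some of them in the vessel wall.

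Values are FPKM, fragments scaled by gene length and library total, so levels of different genes can be set side by side. The fragments behind them could be recovered, with library totals of 23439506 to 29725808. The log2 fold change (log2FC) is BPVB minus sham on log2(FPKM + 0.5), which understates the change of genes near or below 0.5 FPKM, and it was tested in limma over all 15150 genes with Benjamini-Hochberg adjustment. Genes are called higher or lower at an adjusted p under 0.05, and differentially expressed genes (DEGs) also have a log2FC above 1 or below -1. In some genes the libraries of a group differed no more than counting error would give. Clu in the sham group, for example, had a standard deviation (SD) of 4.5 on a mean of 1091 FPKM, from 52172 to 52607 fragments per library. Whether the spread within a group covers the variation between rats was not tested, and the standard errors (SE) and adjusted p rest on it. The median log2FC of all tested genes was 0.02. Endothelial, smooth muscle and atrial myocyte markers of the lists used were all above 0 in every library.

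Of the 38 tested genes, 17 (44.7%) rose and 2 (5.26%) fell, beside 17.2% and 14.3% of all tested genes. DEGs among them were C2, C3, C4a, C4b and C6, all 5 higher and all complement components, which is 13.2% of the 38 beside 2.24% of all tested genes. No gene of the list was a lower DEG (0 in limma, 0 also at an unadjusted p under 0.05 since no log2FC was below -1, and 0 in limma-voom), beside 1.03% of all tested genes. In 19 genes (50.0%) every BPVB library was above every sham library, beside 25.2% of all genes, and in 5 (13.2%) every BPVB library was below, beside 20.5%. The median log2FC of the 38 was 0.21, and the genes spanned -0.29 to 1.64. Close to the DEG threshold stood C3 on its inner side with 1.06, and F3 and C7 on its outer side with 0.98 and 0.91.

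**Figure D1:**
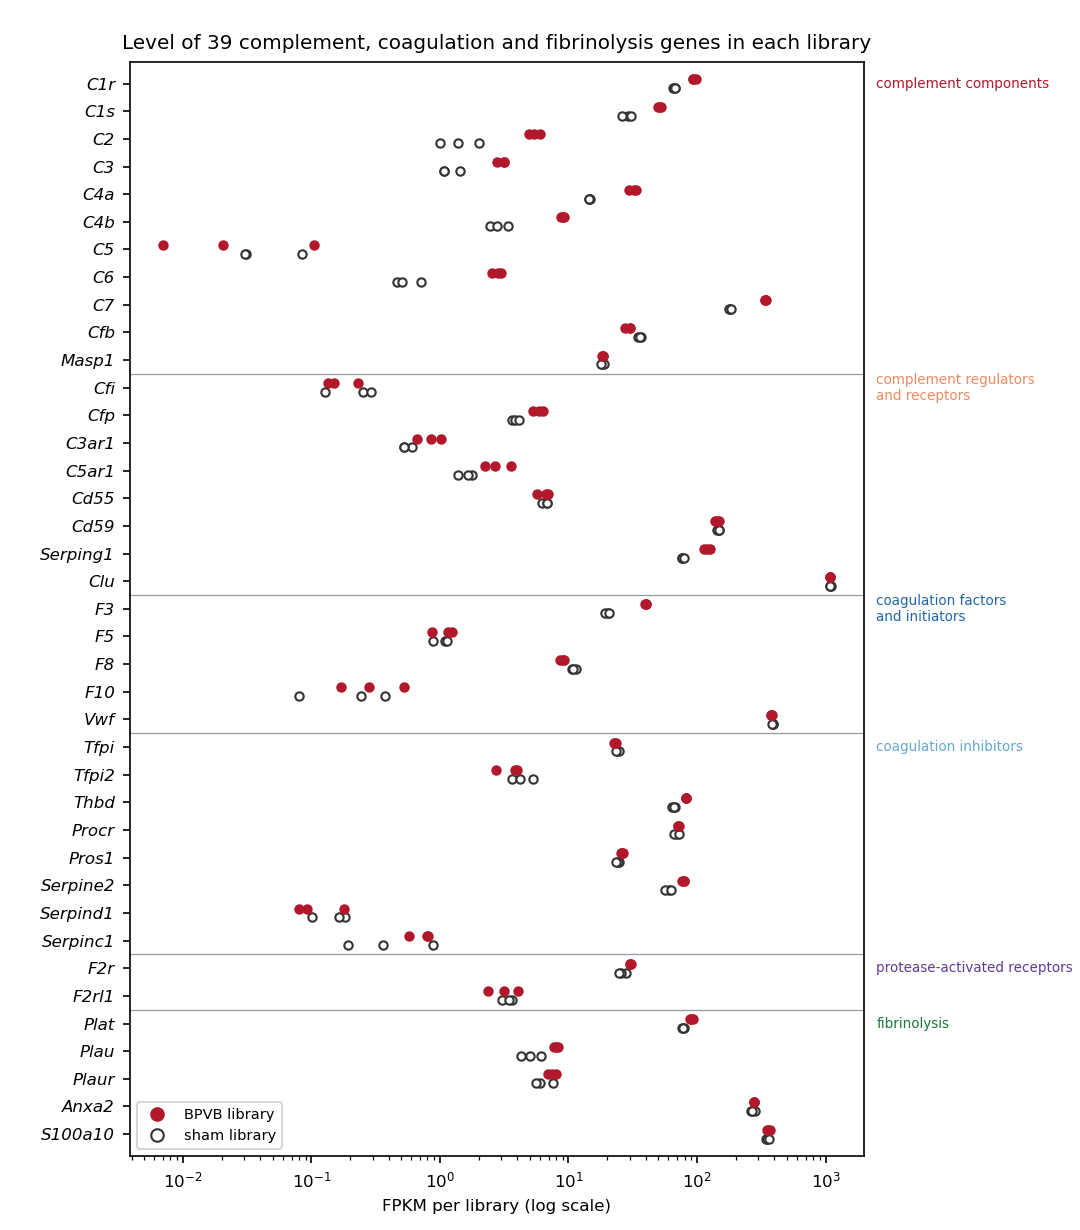
FPKM of the 39 genes in each library on a log axis, with BPVB libraries as filled points and sham libraries as open points, grouped by role. Levels run from 0.00700 FPKM for C5 in a BPVB library to 1096 for Clu in a sham library, and the points of the groups stand apart for most complement components but lie on each other for Clu, Cd59, Anxa2 and S100a10.

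**Figure D2:**
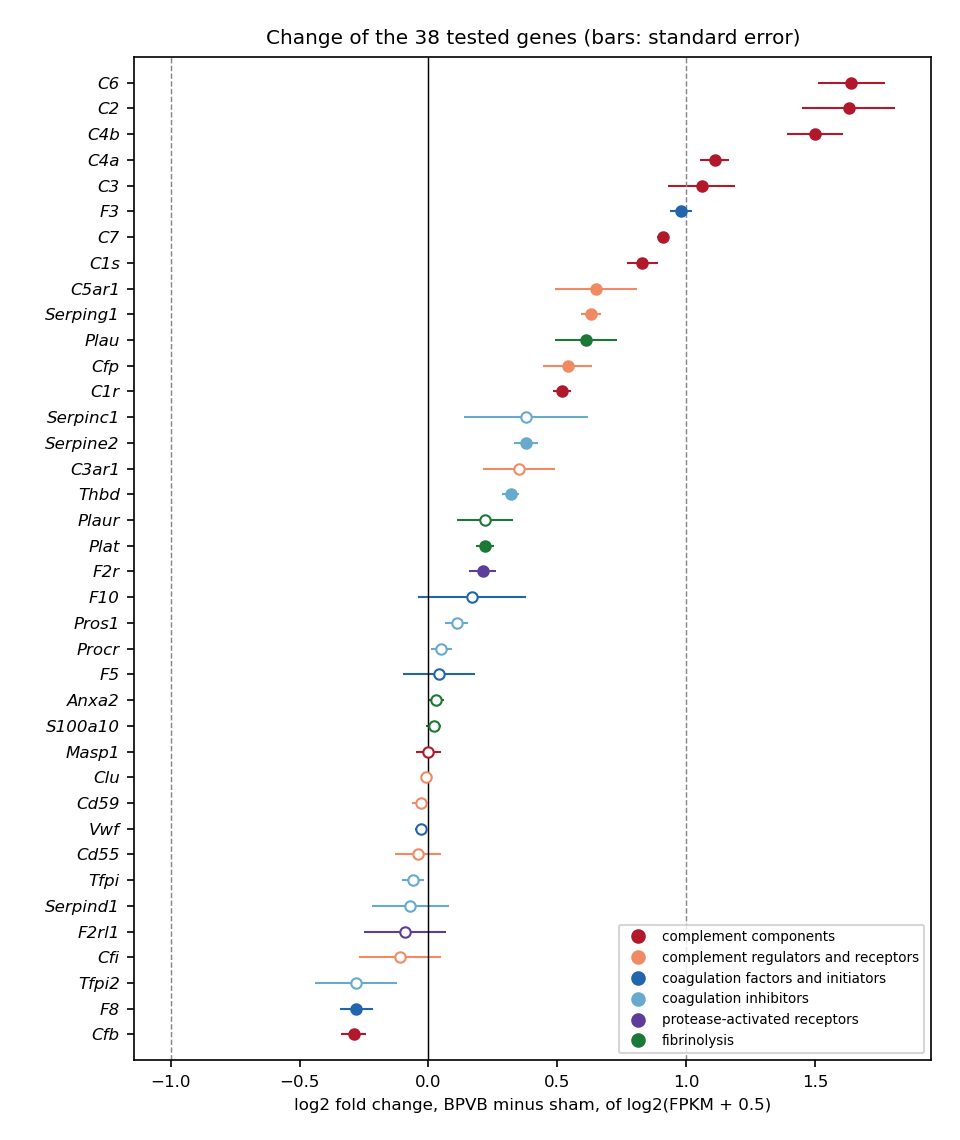
Log2FC (BPVB minus sham) of the 38 tested genes with standard errors, filled where the adjusted p was under 0.05, colored by role, with dashed lines at -1 and 1. The complement components C6, C2, C4b, C4a and C3 lie above 1, and Cfb and F8 are the filled points below 0.

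The complement components were the group in which most genes rose, with 8 of 10 tested genes higher, 1 lower and a median log2FC of 0.99. These are 80.0% and 10.0%, beside 17.2% and 14.3% of all tested genes. Their summed level was 590.5, 579.9 and 586.2 FPKM after banding, compared with 349.4, 346.2 and 355.2 for sham surgery. Every BPVB library was thus above every sham library, and the ratio of the mean sums was 1.67. C7 alone made up 57.3% to 58.4% of this sum in the BPVB group and 51.3% to 51.7% in the sham group, and C1r came next with 15.8% to 16.8% and 18.6% to 19.3%.

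C1r and C1s, the proteases of the C1 complex that open the classical pathway, both rose. C1r was at 93.1, 93.9 and 98.7 FPKM in the BPVB group and at 65.0, 66.9 and 67.1 in the sham group. The groups were well separated, with a log2FC of 0.52 (SE 0.035, adjusted p = 8.6e-06). C1s was at 51.5, 52.1 and 49.9 FPKM after banding and at 28.9, 26.0 and 30.8 in the sham veins, a log2FC of 0.83 (SE 0.060, adjusted p = 1.4e-05). The FPKM ratio of C1r to C1s was 1.80 to 1.98 in the BPVB libraries and 2.17 to 2.57 in the sham libraries (no test).

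C2, the protease that C1s cleaves to build the classical C3 convertase, also rose. It was at 4.96, 5.37 and 5.98 FPKM in the BPVB libraries and at 1.37, 0.999 and 1.999 in the sham libraries. The lowest banded vein had more than the highest sham vein, and the means were 5.44 ± 0.51 and 1.46 ± 0.51 FPKM (SD, n = 3), a ratio of 3.73. The log2FC was 1.63 (SE 0.18, adjusted p = 0.00016), resting on 345 to 463 fragments per BPVB library and 61 to 124 per sham library.

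C4a and C4b encode the other partner of that convertase. C4a was at 33.7, 29.4 and 32.5 FPKM in the BPVB group and at 14.5, 14.7 and 14.3 in the sham group (log2FC 1.11, SE 0.058, adjusted p = 1.8e-06). C4b was lower in level, with 9.25, 9.07 and 8.67 FPKM against 2.44, 3.39 and 2.80 (log2FC 1.50, SE 0.11, adjusted p = 1.6e-05). In neither gene did the groups overlap. The FPKM ratio of C4a to C4b was 3.24 to 3.75 after banding and 4.32 to 5.95 in the sham veins. Their sequences are so alike that a counter may divide reads between them, and the value of either gene alone is uncertain.

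Promoter windows of 300 bases, from 250 bases before to 50 after the gene start (RefSeq, build GRCr8), are shown for the complement DEGs that have one, because these genes rose together. A search of both strands for CACGTG (an E-box), TTCNNNGAA (a STAT-type element) and TGANTCA (an AP-1 element) found CACGTG in the windows of C4a and C4b, and none of these letters in those of C3 and C6. Capitals mark the E-box, at -90 to -85 from the start in C4a and at -95 to -90 in C4b.
C4a, chr20:4010107-4010406, plus strand: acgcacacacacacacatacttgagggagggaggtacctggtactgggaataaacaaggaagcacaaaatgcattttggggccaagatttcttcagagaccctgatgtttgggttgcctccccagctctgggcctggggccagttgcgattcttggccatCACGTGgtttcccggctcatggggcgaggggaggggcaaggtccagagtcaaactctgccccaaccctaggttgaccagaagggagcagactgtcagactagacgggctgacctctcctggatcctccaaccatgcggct
C4b, chr20:4201729-4202028, plus strand: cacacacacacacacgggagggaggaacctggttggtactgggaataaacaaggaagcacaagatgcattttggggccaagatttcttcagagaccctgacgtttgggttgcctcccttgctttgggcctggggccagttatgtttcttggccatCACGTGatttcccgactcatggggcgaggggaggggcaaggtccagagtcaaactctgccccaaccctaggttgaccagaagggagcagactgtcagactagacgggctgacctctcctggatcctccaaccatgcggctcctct
C3, chr9:2201290-2201589, minus strand: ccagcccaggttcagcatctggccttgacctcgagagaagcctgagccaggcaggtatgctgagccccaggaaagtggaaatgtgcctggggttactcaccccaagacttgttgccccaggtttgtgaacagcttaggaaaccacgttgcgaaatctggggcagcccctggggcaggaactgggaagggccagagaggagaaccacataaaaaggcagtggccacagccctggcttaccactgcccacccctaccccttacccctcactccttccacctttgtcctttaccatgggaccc
C6, chr2:55573383-55573682, plus strand: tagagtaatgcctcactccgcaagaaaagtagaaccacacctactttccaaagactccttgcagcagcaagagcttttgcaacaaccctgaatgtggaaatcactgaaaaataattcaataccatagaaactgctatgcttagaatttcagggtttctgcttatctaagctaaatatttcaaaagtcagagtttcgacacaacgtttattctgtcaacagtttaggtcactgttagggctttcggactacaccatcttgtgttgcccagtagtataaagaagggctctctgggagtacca

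When shifted by 5 bases, 276 of the 295 overlapping bases of the C4a and C4b windows were identical (93.6%). Windows were found for 23 genes of the list (24 windows, since Tfpi has 2). CACGTG was in 3 of the 24 (12.5%, in C4a, C4b and Tfpi), beside 6.42% of the 33469 promoters in the table, and TTCNNNGAA was in 1 (4.17%, in Pros1), beside 8.87%. TGANTCA was in 8 (33.3%), beside 7.33%, in Anxa2, C3ar1, Cfp, F2r, F5, Plaur, Procr and Tfpi2. Of the 9 genes with a window that were higher in the BPVB group, 2 held TGANTCA (Cfp and F2r) and 2 held CACGTG. These matches are descriptions of the letters, and binding was not measured.

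C3, on which all complement pathways converge and whose fragments tag surfaces and attract leukocytes, also rose. It was at 3.14, 2.78 and 3.14 FPKM in the BPVB libraries and at 1.07, 1.07 and 1.44 in the sham libraries. The groups stood apart, with means of 3.02 ± 0.21 and 1.19 ± 0.21 FPKM (SD, n = 3). The log2FC was 1.06 (SE 0.13, adjusted p = 0.00029), and it was 0.88 with a pseudocount of 1 and 0.96 after quantile normalization, so that C3 counted as a DEG in neither, while its adjusted p stayed under 0.05.

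C6 and C7 join the membrane attack complex after C5b. C6 was at 2.98, 2.55 and 2.81 FPKM after banding and at 0.460, 0.706 and 0.511 in the sham veins. The ratio of the means was 4.98 and the log2FC 1.64 (SE 0.13, adjusted p = 2.9e-05), from 213 to 268 fragments per BPVB library and 35 to 53 per sham library. C7 was at 343.5, 338.4 and 336.1 FPKM against 180.5, 178.9 and 182.4, a ratio of the means of 1.88 and a log2FC of 0.91 (SE 0.024, adjusted p = 3.4e-08). The spread within either group was small beside the distance between them. C6 was far below C7 in level, with FPKM ratios of C6 to C7 of 0.00754 to 0.00869 in the BPVB group and 0.00255 to 0.00395 in the sham group. C5, which supplies the fragment that starts this complex, was barely detected, with 1 to 17 fragments per library in the BPVB group and 4 to 11 in the sham group, and was not tested.

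Cfb, the protease of the alternative pathway convertase, moved against the 8 components that rose. It was at 29.9, 27.7 and 30.0 FPKM in the BPVB libraries and at 36.7, 34.7 and 35.9 in the sham libraries. Every banded vein was below every sham vein, and Cfb fell by 0.29 on the log2 scale (SE 0.048, adjusted p = 0.0018). The FPKM ratio of C2 to its relative Cfb was 0.166 to 0.199 after banding and 0.0288 to 0.0557 in the sham veins. Masp1, a protease of the lectin pathway, was at 18.2 to 18.6 FPKM in the BPVB group and 18.0 to 18.8 in the sham group (log2FC 0.00, SE 0.047, adjusted p = 0.97), and the groups overlapped.

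**Figure D3:**
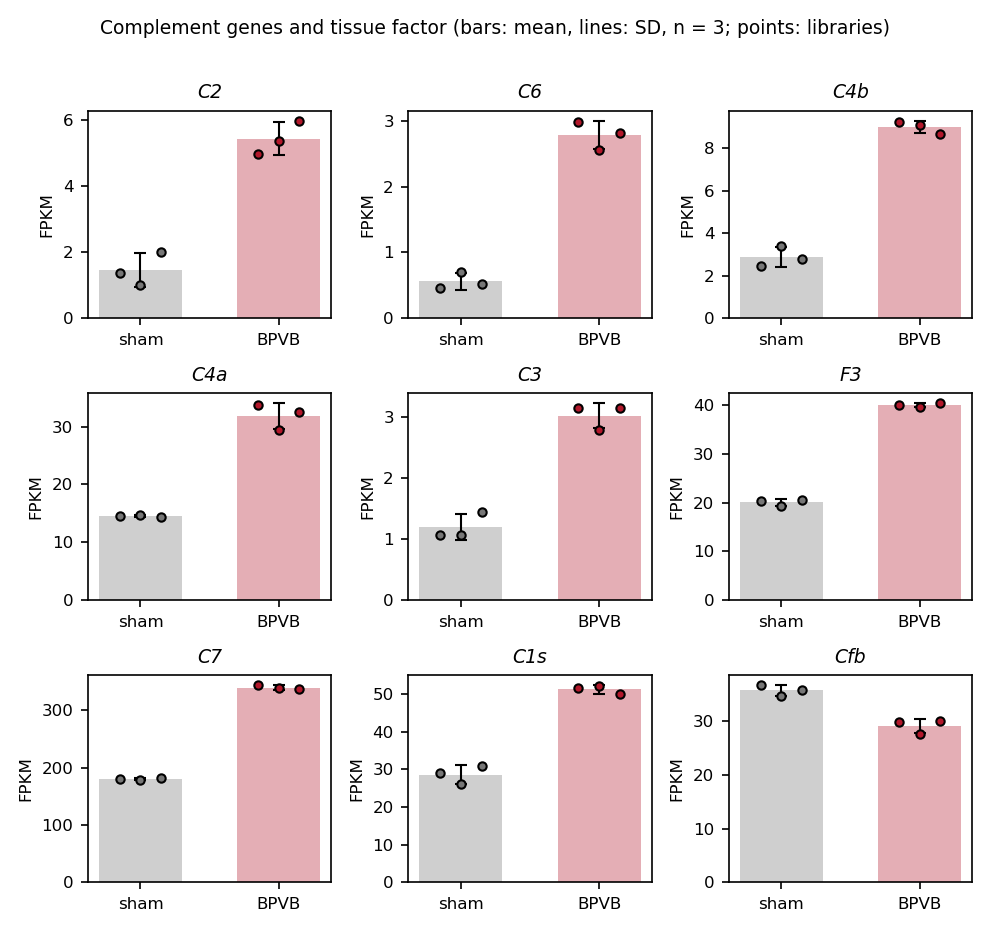
FPKM of C2, C6, C4b, C4a, C3, F3, C7, C1s and Cfb, with bars at the group mean, lines at 1 SD (n = 3) and a point per library, each panel starting at 0 with its own scale. In the first 8 panels all BPVB points lie above all sham points, and in the Cfb panel they lie below.

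Among the 8 regulators and receptors of complement, 3 rose (37.5%, beside 17.2% of all tested genes) and 5 did not pass the test. Serping1, the C1 inhibitor that holds C1r and C1s as well as kallikrein in check, was at 125.2, 120.2 and 114.4 FPKM in the BPVB group and at 76.5, 76.7 and 78.9 in the sham group. The groups did not overlap (log2FC 0.63, SE 0.038, adjusted p = 4.6e-06). The FPKM ratio of C1r to Serping1 was 0.744 to 0.863 after banding and 0.850 to 0.872 in the sham veins, ranges that overlap. Cfp, properdin, which stabilizes the alternative convertase, was at 6.31, 5.89 and 5.25 FPKM against 3.61, 3.81 and 4.09 (log2FC 0.54, SE 0.096, adjusted p = 0.0027). C5ar1, the receptor of the C5a fragment on myeloid cells, was at 2.71, 2.22 and 3.55 FPKM against 1.37, 1.77 and 1.65 (log2FC 0.65, SE 0.16, adjusted p = 0.014). In both genes the BPVB libraries were all above the sham libraries.

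C3ar1, the receptor of C3a, was at 1.01, 0.667 and 0.855 FPKM in the BPVB group and at 0.527, 0.607 and 0.521 in the sham group. These values did not overlap either, but the log2FC of 0.35 (SE 0.14) did not pass the test (adjusted p = 0.10), and it passed only in limma-voom on the recovered fragments (log2FC 0.60, adjusted p = 0.036). The membrane protectors of host cells did not pass. Cd55, which dissolves convertases, was at 5.73 to 6.89 FPKM in the BPVB group and 6.23 to 6.85 in the sham group, and Cd59, which blocks the pore, was at 138.6 to 147.6 and 142.0 to 148.6. Clu, clusterin, an abundant chaperone that also binds the forming pore, had the highest level of the list, with 1078, 1086 and 1082 FPKM against 1090, 1096 and 1088. Its groups did not overlap, yet they differed by under 1% (a change of -0.865%, log2FC -0.01, adjusted p = 0.65). Cfi, the protease that inactivates C3b and C4b, was found at only 3 to 7 fragments per library, the smallest whole numbers its values allow, and no difference was detectable at that depth (log2FC -0.11, adjusted p = 0.65).

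Macrophage markers moved with these genes: 8 of the 9 tested markers of 10 listed were higher in the BPVB group, and their summed level was 653 to 680 FPKM against 209 to 217. Most of that sum was Lyz2, which type 2 alveolar cells also express, and without it the sum was 76.3 to 81.5 FPKM against 47.0 to 50.0. Marco was not analysed here. Alveolar epithelial markers were higher in 8 of 9 genes, with sums of 639 to 697 against 132 to 138 FPKM, and airway markers in 1 of 2 tested genes of 6 listed, with sums of 24.1 to 28.2 against 3.38 to 4.95. Scgb1a1 was the gene that rose, and Dnah5 did not pass (log2FC 0.01, adjusted p = 0.98). Scgb3a2, Foxj1 and Krt5 were at 0 in every BPVB library and at no more than 4 fragments in any sham library, and were not tested. Hepatocyte markers were higher in 4 of 6 tested genes (119 to 128 against 70.9 to 77.7 FPKM). Most of that sum was Tf, at 77.4 to 82.6 against 42.0 to 43.9 FPKM. Neutrophil markers, by contrast, were lower in 5 of 7 (6.76 to 10.8 against 22.9 to 26.0) and endothelial markers in 5 of 9 (800 to 818 against 903 to 915). Fibroblast markers were mixed, with 3 higher and 2 lower of 7, as were smooth muscle markers with 1 higher and 4 lower of 6. Of all tested genes, 17.2% were higher and 14.3% lower. The part of these cell types in the levels of the complement genes was not tested.

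The coagulation factors and initiators held 1 gene that rose and 1 that fell among 5 tested. These are 20.0% each, near the 17.2% and 14.3% of all tested genes. F3, tissue factor, the membrane protein that starts coagulation, was at 40.1, 39.5 and 40.4 FPKM in the BPVB group and at 20.3, 19.3 and 20.5 in the sham group. No library of a group came near those of the other, and the means were 40.0 ± 0.44 and 20.1 ± 0.66 FPKM (SD, n = 3). F3 thus was 1.99 times as high after banding (log2FC 0.98, SE 0.043, adjusted p = 7.1e-07), just short of the DEG threshold, which it passed only on the TPM scale (1.02). F8, the cofactor in which hemophilia A is deficient and which endothelium makes, was at 9.21, 9.07 and 8.52 FPKM against 11.4, 10.7 and 10.9. All banded veins were below all sham veins, and F8 fell by 0.28 on the log2 scale (SE 0.064, adjusted p = 0.0094).

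Vwf, the endothelial protein that carries factor VIII and tethers platelets, was at 378.7, 374.9 and 382.0 FPKM in the BPVB group and at 387.5, 388.9 and 385.1 in the sham group. The libraries of the groups did not overlap, but the log2FC of -0.03 (SE 0.022) did not pass the test (adjusted p = 0.29). It passed as lower in limma-voom on fragments (-0.03, adjusted p = 0.00078) and had the opposite sign after quantile normalization (0.04), so no direction is given. F5, the cofactor of the prothrombinase, was at 0.873 to 1.24 FPKM in the BPVB libraries and 0.884 to 1.14 in the sham libraries, with overlapping groups (adjusted p = 0.85). F10, the protease of that complex, had 3 to 22 fragments per library and showed no detectable difference (log2FC 0.17, SE 0.21, adjusted p = 0.59).

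Of the 8 inhibitors of coagulation, Thbd and Serpine2 rose (25.0%, beside 17.2% of all tested genes) and 6 did not pass the test. Thbd, thrombomodulin, which turns thrombin toward protein C on the endothelial surface, was at 82.6, 82.1 and 82.1 FPKM in the BPVB libraries and at 67.1, 63.6 and 66.4 in the sham libraries. The rise was small but every library followed it (log2FC 0.32, SE 0.033, adjusted p = 0.00011), while 5 of 9 endothelial markers were lower in the same veins. Serpine2, protease nexin-1, an inhibitor of thrombin and of the plasminogen activators made by mesenchymal cells, was at 76.2, 79.6 and 79.7 FPKM against 60.6, 56.4 and 63.2 (log2FC 0.38, SE 0.046, adjusted p = 0.00028). The groups did not overlap.

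Tfpi, the inhibitor of the tissue factor complex, did not follow F3. It was at 23.3, 23.2 and 22.4 FPKM in the BPVB group and at 23.6, 24.5 and 23.6 in the sham group (log2FC -0.06, SE 0.044, adjusted p = 0.35). The FPKM ratio of F3 to Tfpi was 1.72, 1.70 and 1.80 after banding and 0.860, 0.787 and 0.869 in the sham veins, so F3 was above its inhibitor in every banded vein and below it in every sham vein. This ratio of transcripts carries no test of its own. Tfpi2, a related inhibitor kept in the matrix, was at 2.75 to 3.96 FPKM against 3.64 to 5.29 (log2FC -0.28, SE 0.16, adjusted p = 0.23).

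Of the protein C pathway, neither the receptor nor the cofactor passed the test. Procr, the endothelial protein C receptor, was at 71.3 to 72.4 FPKM in the BPVB group and 65.7 to 72.4 in the sham group (adjusted p = 0.35). Pros1, protein S, the cofactor of activated protein C and a ligand of clearance receptors, was at 25.6, 26.0 and 26.8 FPKM against 24.7, 24.2 and 23.5, without overlap. Its log2FC of 0.11 (SE 0.044, adjusted p = 0.081) passed the test only on the TPM scale (0.15, adjusted p = 0.035). Serpinc1, antithrombin, was at 0.810, 0.578 and 0.793 FPKM against 0.193, 0.363 and 0.880 (log2FC 0.38, SE 0.24, adjusted p = 0.27). Sham replicate 3 was above every BPVB library, unlike the other sham libraries, and without it the log2FC of Serpinc1 was 0.66 (adjusted p = 0.032). With each library left out in turn, it ran from 0.16 to 0.66, and Serpinc1 passed in no other alternative. Serpind1, heparin cofactor II, had 5 to 10 fragments per library and no detectable difference (adjusted p = 0.75).

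F2r, the main thrombin receptor PAR1, was at 30.7, 30.0 and 30.3 FPKM in the BPVB libraries and at 28.0, 25.7 and 24.8 in the sham libraries. The groups did not overlap, and the rise was small (log2FC 0.21, SE 0.052, adjusted p = 0.014). It lost the call without sham replicate 3 (log2FC 0.17, adjusted p = 0.051). F2rl1, PAR2, which trypsin-like proteases and the tissue factor complex cleave, was at 4.04, 3.15 and 2.36 FPKM against 3.06, 3.61 and 3.42, with overlapping groups (log2FC -0.09, SE 0.16, adjusted p = 0.71).

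In fibrinolysis, both plasminogen activators rose (40.0%, beside 17.2% of all tested genes) and the 3 other tested genes did not pass. Plat, the tissue-type activator secreted by endothelium, was at 93.2, 87.7 and 90.2 FPKM in the BPVB group and at 75.8, 78.6 and 78.0 in the sham group (log2FC 0.22, SE 0.035, adjusted p = 0.0014). Plau, the urokinase-type activator used by migrating cells, was at 8.28, 7.78 and 7.94 FPKM against 4.25, 6.14 and 4.98 (log2FC 0.61, SE 0.12, adjusted p = 0.0044). In both, all banded veins were above all sham veins. Plaur, the urokinase receptor, was at 6.88, 8.07 and 7.48 FPKM against 5.99, 7.59 and 5.60 (log2FC 0.22, SE 0.11, adjusted p = 0.19). Sham replicate 2 lay within the BPVB range, and only without it did Plaur pass (log2FC 0.34, adjusted p = 0.035). With each library left out in turn, the log2FC of Plaur ran from 0.14 to 0.34. Anxa2 and S100a10, whose proteins form a complex that gathers plasminogen and Plat at the cell surface, were abundant in both groups. Anxa2 was at 275.9 to 280.1 FPKM in the BPVB libraries and 262.6 to 282.4 in the sham libraries, and S100a10 at 349.2 to 367.8 and 346.8 to 361.7, and the groups overlapped in both genes (adjusted p = 0.43 and 0.66).

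A further 79 genes of the same pathways were set beside these, of which 77 were in the table and 62 were tested. Of the 62, 19 (30.6%) were higher and 7 (11.3%) lower, beside 17.2% and 14.3% of all tested genes. The complement genes again held most of the rises, with 11 higher (44.0%) and 4 lower of 25. The coagulation genes had 3 higher (11.5%, below the share of all genes) and 2 lower of 26, and the fibrinolysis genes 5 higher (45.5%) and 1 lower of 11. DEGs were Cfd, Fcnb, Itgb2 and Klkb1, which were higher, and Vtn, which was lower. The difference in counts between these groups of genes was not tested.

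Cfd, factor D, the protease that cleaves factor B, was at 23.0, 24.9 and 28.5 FPKM in the BPVB group and at 7.14, 7.65 and 6.13 in the sham group (log2FC 1.80, SE 0.099, adjusted p = 2.5e-06). Set against the lower Cfb, the FPKM ratio of Cfd to Cfb was 0.768 to 0.949 after banding and 0.171 to 0.220 in the sham veins. Cfd, also called adipsin, is a known product of adipocytes, and adipocyte markers moved with it, with 6 of 10 higher (Adipoq, Plin1, Cidec, Retn, Adig and Aqp7) and 1 lower (Lipe). Adipoq, adiponectin, was at 19.4, 17.9 and 19.1 FPKM against 6.03, 4.76 and 8.13 (log2FC 1.53, adjusted p = 9.4e-05). The summed level of the 10 markers was 1356 to 1398 FPKM after banding and 1344 to 1360 in the sham veins, almost all of it Fabp4, which endothelium also expresses. The part of adipocytes in the level of Cfd was not tested.

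Vtn, vitronectin, a plasma and matrix protein that binds the terminal complex, was at 13.7, 16.5 and 12.1 FPKM against 39.7, 37.3 and 37.6, and fell by 1.42 on the log2 scale (SE 0.096, adjusted p = 9.0e-06). Neither in Vtn nor in Cfd did the groups overlap. Itgb2, the beta chain of the leukocyte complement receptors, rose with a log2FC of 1.17 (adjusted p = 3.9e-05), and Fcnb, a ficolin of myeloid cells that starts the lectin pathway, with 1.39 (adjusted p = 0.0024).

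The C1q chains, which recognize the targets of C1 and are made by macrophages, were all higher, with log2FCs of 0.42 for C1qa, 0.42 for C1qb and 0.46 for C1qc (adjusted p = 0.0025, 0.015 and 0.0023). The call of C1qb was lost when BPVB replicate 2, BPVB replicate 3, sham replicate 1 or sham replicate 2 was left out (adjusted p = 0.053 to 0.055).

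On the side of clotting and clot removal, Klkb1, plasma prekallikrein, was counted in 74, 52 and 47 fragments after banding and in 1, 1 and 0 in the sham veins. Its fitted log2FC of 1.35 (adjusted p = 0.00029) depends on the pseudocount and ran from 0.84 to 5.55 over the alternatives. F2, prothrombin, and Fga, a fibrinogen chain, were below 1 FPKM in every library and did not pass (log2FC 0.39 and 0.37, adjusted p = 0.15 and 0.21), and F13a1, the clot-linking transglutaminase of macrophages and platelets, was at 9.53 to 9.82 FPKM against 9.66 to 10.2 (adjusted p = 0.64). Proc, protein C, was too low to test. Plg, plasminogen, was at 2.27 to 2.61 FPKM against 2.12 to 2.55 and did not pass (adjusted p = 0.69). Thbs1, thrombospondin 1, an adhesive protein of platelets and injured vessels, rose with a log2FC of 0.98 (SE 0.051, adjusted p = 1.7e-06).

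**Figure D4:**
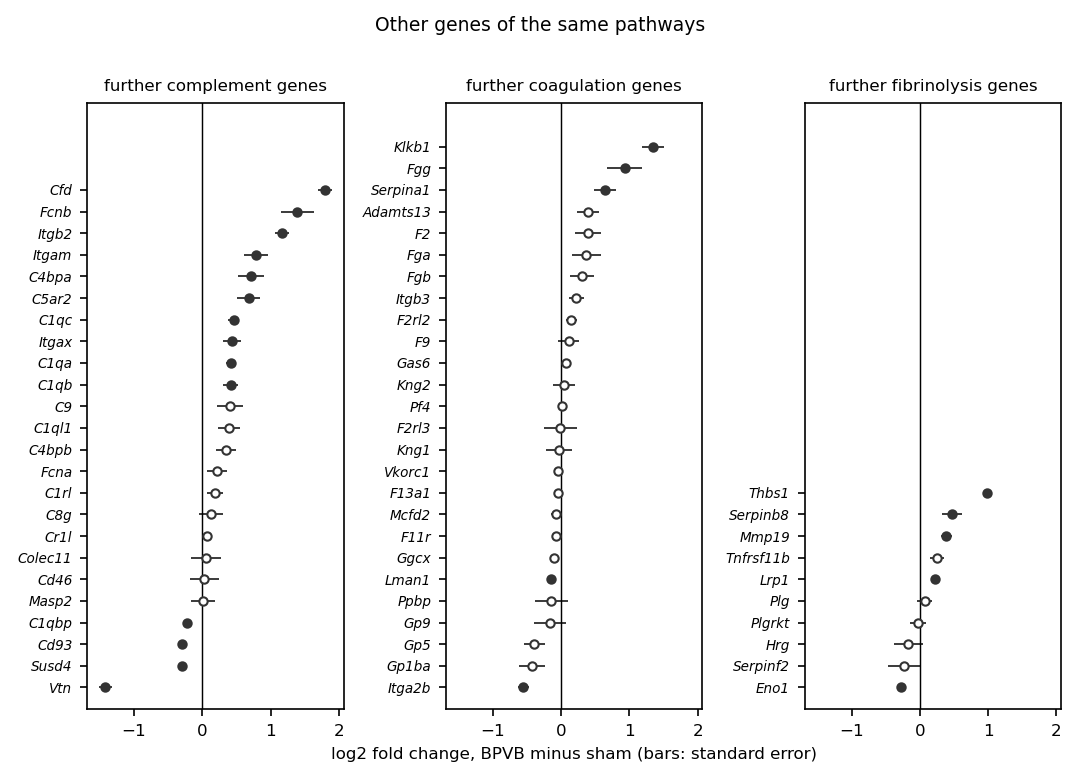
Log2FC (BPVB minus sham) with standard errors of further tested genes of the pathways, in panels for complement, coagulation and fibrinolysis, filled where the adjusted p was under 0.05. Cfd is highest and Vtn lowest among the complement genes, and most coagulation genes are open points near 0.

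Several of the genes are neighbours in the rat genome (gene order of RefSeq, build GRCr8), and neighbours did not always move alike. C1r and C1s are adjacent on chromosome 4 and both rose, and C6 and C7, with 1 gene between them on chromosome 2, both rose. C5ar1 and C5ar2, which encodes the other C5a receptor, are adjacent on chromosome 1 and were both higher (C5ar2 log2FC 0.68, adjusted p = 0.014). C2 and Cfb, adjacent on chromosome 20 and alike in the proteins they encode, moved in opposite directions. Thbd and Cd93, adjacent on chromosome 3 and both expressed by endothelium, also did, with Cd93 at 98.8, 98.6 and 100.8 FPKM in the BPVB group and 120.3, 122.1 and 121.8 in the sham group (log2FC -0.29, adjusted p = 7.7e-05).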

How the data were processed

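The libraries were grouped by the surgery given in the sample labels, and the columns of the table were matched to them by name and replicate number. The reads were 150 bases long and paired. The authors mapped and counted them and deposited FPKM per gene and library. The paper's methods name fastp, HISAT, HTSeq-count and DESeq2, whereas the submitters' processing notes name HISAT2 2.0.5, StringTie 1.3.3b, featureCounts 1.5.0-p3 and DESeq2 1.20.0. The kits named also differ (VAHTS Universal V6 in the paper, NEBNext Ultra in the labels). Genome build, annotation and strand setting were not given in the sources used here, so overlapping and antisense genes cannot be told apart.

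Deposited FPKM are not counts, and DESeq2 was not run here. FPKM were compared as log2(FPKM + 0.5) over genes with a mean of at least 0.1 FPKM with limma 3.58.1 in R 4.3.3 (lmFit, eBayes with a trend), two-sided, all 6 libraries, group only. Whole fragments were recovered from the steps of the values for 100.0% of genes and served as depth and in limma-voom (at least 10 fragments in all libraries together). Whether fragments stem from separate molecules is unknown, and limits from them cover counting error only. DEG thresholds (adjusted p 0.05, absolute log2FC 1) are those of the study's methods. Scripts were tested on simulated data. The other steps used Python 3.11.15 with numpy 2.4.6, pandas 2.3.3 and matplotlib 3.10.9.

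The genes and lists were chosen with earlier results of these data known, and all listed genes found in the table are named. Of the further pathway genes, DEGs and genes chosen by textbook role are named, except some that are not reported here, while C5ar2, Cd93 and the adipocyte markers were added after values were seen. Promoters and gene order came from RefSeq (GRCr8). Alternatives were pseudocounts of 1 and 0.1, no filter and a mean of at least 1 FPKM, median-of-ratios, TPM and quantile scaling, the replicate block, robust eBayes, limma-voom, and each library left out in turn.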

Additional observations from a re-analysis of the deposited data

How the results depend on the processing

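Over 16 alternatives, 584 of 603 results for single listed genes kept their direction and their side of the threshold, 1 lost its call, 5 gained one and 13 changed sign, none of them a called gene. Of the 19 called genes, 18 kept call and direction in every alternative that included them, the exception being F2r. The number of listed genes called higher was 17 to 18 and lower 2 to 3, and DEGs numbered 4 to 6. With the replicate number as a block (replicate block), 17 listed genes were higher, 2 lower and 5 DEGs, the same counts as without it, and 17 and 6 further pathway genes were called in place of 19 and 7. Over the alternatives that kept all libraries these counts were 15 to 20 higher and 6 to 8 lower, and with a library left out 14 to 19 and 6 to 9. C6 had a larger log2FC than C2 with all libraries (1.637 and 1.63) but a smaller one with a pseudocount of 1 (1.281 and 1.407), so their order is not given. The labels give the numbers no meaning. The deviations of same-numbered libraries correlated at 0.031, 0.025 and 0.019, below 0.1, although each library correlated best with its own number, as a hint from the data. The median log2FC of the tested listed genes was 0.17 to 0.23 when a library was left out, with the lowest value without sham replicate 1, beside 0.21 with all libraries.

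Sign changes occurred with median-of-ratios scaling in Masp1 (-0.022) and S100a10 (-0.007), with TPM in Clu (0.019), and with quantile normalization in F5 (-0.075), Vwf (0.044) and Plg (-0.013). With a library left out, Masp1 was at -0.012 to 0.02, Cd55 at -0.094 to 0.029, F5 at -0.03 to 0.15, F10 at -0.0003 to 0.31, F2rl1 at -0.26 to 0.077 and S100a10 at -0.002 to 0.038. The causes were not tested. Cfi, F10, Serpind1, Serpinc1 and C5 had under 40 fragments in every library, and the part of depth in their missing calls was not tested.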

Other observations

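Among pathway genes made mainly by the liver, the fibrinogen chains were low and uneven. Fgg was at 1.34, 1.98 and 2.54 FPKM in the BPVB group and at 0.3499, 1.06 and 0.998 in the sham group (log2FC 0.93, SE 0.26, adjusted p = 0.026 in limma), without overlap, but the call was lost with no filter (adjusted p = 0.053) and without BPVB replicate 2, BPVB replicate 3 or sham replicate 1 (adjusted p = 0.068, 0.090 and 0.060). Fgb was at 0.957 to 1.89 against 0.9502 to 1.05 FPKM and did not pass (adjusted p = 0.23). Serpina1, alpha-1-antitrypsin, which is also on the hepatocyte list, was higher (log2FC 0.64, adjusted p = 0.014), as was Tf, transferrin (0.88, adjusted p = 7.1e-07). Ttr and Apoa1, also made by hepatocytes, did not pass (adjusted p = 0.30 and 0.27). Ttr passed only without sham replicate 1 (log2FC 0.41, adjusted p = 0.020), and with each library left out in turn its log2FC ran from 0.06 to 0.41. Fgg, Fgb and these liver genes were picked after their values were seen.

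Platelet genes stood beside the coagulation genes with 1 of 5 markers lower (20.0%, beside 14.3% of all tested genes) and none higher. Their summed level was 213.0 to 227.9 FPKM in the BPVB group and 213.9 to 233.4 in the sham group, almost all of it Pf4. This sum thus follows 1 gene and is no measure of platelet content. Ppbp had 0 to 5 fragments per library, and Gp9 and Gp1ba were at means of 2.77 and 0.421 FPKM after banding and 3.09 and 0.725 in the sham veins. The marker that fell was Itga2b, the platelet fibrinogen receptor chain, at 5.18, 4.88 and 4.65 FPKM against 7.85, 7.09 and 7.22 (log2FC -0.55, adjusted p = 0.00097). Erythroid markers were lower in 1 of 5, T and B lymphocyte markers higher in 1 of 7, and mesothelial markers higher in 1 and lower in 2 of 4 tested. Atrial and other cardiomyocyte markers, from the muscle around the PV, were lower in 5 and higher in 2 of 7, with sums of 14103 to 14470 FPKM after banding and 19690 to 20042 in the sham veins.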
